A study of Mus musculus with 2 samples.

Results

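RNA levels of 36 genes of the bone morphogenetic protein (BMP) pathway were compared in the mandibular prominence, the facial swelling that forms the lower jaw and carries the tongue primordium. The genes were taken by name: 8 ligands, the protease Bmp1, 6 receptors, 4 activating Smads, 4 intracellular inhibitors, 4 Id genes and 9 extracellular or membrane modulators. All 36 were found among the 30723 gene symbols of both deposited tables. The series holds 2 mouse libraries, 1 per group, each made from the pooled prominences of 10 embryos on a mixed CD1 background. One group is called control, and the labels give no further allele for it. The other is Kif3a f/f ; Wnt1-Cre, in which the floxed gene for a kinesin-2 motor subunit is deleted by a Cre that is active in the neural crest and its descendants. Epithelium, myoblasts, vessel endothelium and blood of the same prominence do not come from these cells and keep the gene. Both groups are labelled E11.5, counted from the vaginal plug. The name of the mutant table gives day 11 and another sequencing run, so genotype cannot be told apart from run or from a stage difference. The name of the control table gives CD1.

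BMPs are secreted dimers that bind pairs of type I and type II receptor kinases. The type I receptor phosphorylates Smad1, Smad5 or Smad9, which join Smad4 and enter the nucleus, where genes such as the Id genes respond. Extracellular binding proteins (Nog, Grem1, Chrd, Fst) keep ligands from receptors, and Smad6, Smad7 and the Smurf ligases act as feedback inhibitors inside the cell. In the mandibular arch, BMP signals from epithelium and distal mesenchyme help to set tooth, jaw and tongue fields. The series title concerns cilia, the processing of GLI factors (which carry Hedgehog signals to genes) and the tongue, and the comparison here asks how BMP pathway genes stand in tissue whose neural crest cells lack the ciliary motor.

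Levels are FPKM, fragments counted per kilobase of transcript and scaled to the mapped fragments of the library, summed over the transcripts of a gene. Differences are log2((mutant FPKM + 1) / (control FPKM + 1)) relative to the median of the 12259 genes whose FPKM averaged at least 1, called centred log2 ratios below. The median gene stood at -0.13 before centring, a ratio of 0.913. Folds are FPKM ratios without pseudocount, divided by that ratio. They carry a 95% exact Clopper-Pearson interval on approximate fragment numbers, which covers counting error only. With 1 library per group there is no replicate check and no test between conditions. In pooled tissue, fewer cells of a type and less RNA per cell cannot be told apart.

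The targeted gene Kif3a stood at 11.46 FPKM in control and 5.39 in mutant tissue, a value that covers all exons and not the deleted ones alone. The low values implied about 25400000 mapped fragments for the control and 29500000 for the mutant. Neural crest mesenchyme markers summed to 602 FPKM in control and 545 in mutant tissue, 4 of 8 above the median gene, and no marker of the list was at 0. Within this list centred log2 ratios ran from -0.61 (Col1a2) to 0.49 (Msx1, which is also in the BMP readout list below). Sums for the other cell types differed more between the libraries. Oral epithelium summed to 171 and 200 FPKM, with 8 of 10 above the median gene, and endothelium to 83.1 and 58.2, with 7 of 8 below it. Erythroid markers summed to 24013 and 6952 FPKM, with 7 of 7 below, muscle markers to 35.6 and 8.30, with 5 of 5 over the filter below, macrophage markers to 15.01 and 8.45, with 4 of 5 below, and neuron and glia markers to 19.99 and 13.7, with 3 of 5 below. No marker of these lists was at 0 in either library, and the part that cell composition had in the values that follow was not tested.

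Of the 36 genes, 31 passed the filter on the mean, and Bmp3, Bmp6, Gdf5, Nog and Chrd did not. A gene was counted as higher or lower where its centred log2 ratio, which includes the pseudocount of 1, passed 1.5-fold, and all counts below use that scale. The 4 higher ones were the ligand gene Gdf6, the type II receptor genes Bmpr2 and Acvr2b, and Smad9, against 4.55% of all 12259 genes. The only lower one was the antagonist gene Fst, against 3.23% of all genes. At 2-fold the counts were 0 higher and 1 lower, against 1.08% and 1.05%. The pseudocount shrinks the ratios of low genes: as folds without it, Bmp2 (2.41-fold) and Bmper (1.70-fold) were also past 1.5-fold lower, and Gdf6 (2.12-fold) and Smad9 (2.25-fold) past 2-fold higher. Without centring, 4 were 1.5-fold higher and 3 lower (Bmp2, Fst and Fstl1), against 2.76% and 5.57%, and at 2-fold 0 were higher and 1 lower, against 0.767% and 1.36%. Among the genes that passed were 4 with a level under 1 FPKM in 1 library (Bmp2, Smad9, Fst and Chrdl1), so a count over those that passed is a description. The 31 had a median centred log2 ratio of 0.11, where that of all genes is 0 by construction. Their range was -1.33 to 0.93, while the 5th and 95th percentiles of all genes were -0.48 and 0.56. With 20 above the median gene and 11 below, the pathway as a whole stood near the middle of all genes and a few members stood far from it.

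**Figure D1:**
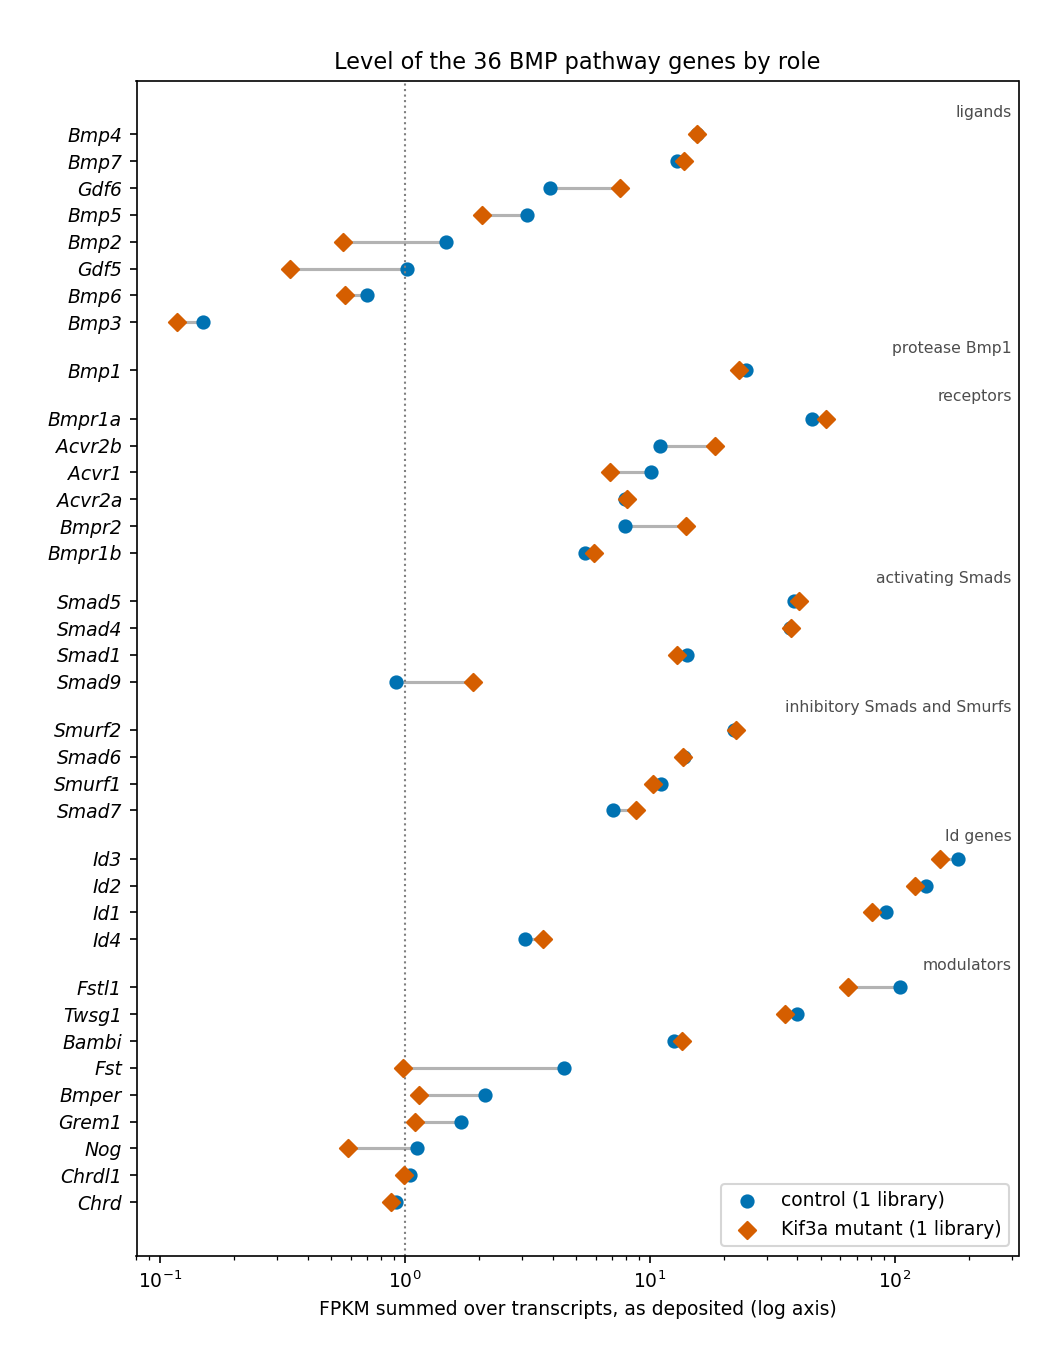
Level of each of the 36 genes, grouped by role, in FPKM on a log axis (circles, control; diamonds, Kif3a mutant; 1 library each; the dotted line marks 1 FPKM). Most pairs of points nearly coincide, while Gdf6, Acvr2b, Bmpr2 and Smad9 lie to the right in the mutant and Fst, Bmp2, Gdf5 and Fstl1 to the left.

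Among the ligands, the 2 most abundant were close to the median gene, Gdf6 was higher in mutant tissue, and Bmp2, Gdf5 and Bmp5 were lower. Bmp4, made by distal arch mesenchyme and epithelium and needed for mandibular outgrowth, stood at 15.5 FPKM in control and 15.5 in mutant tissue, a fold of 1.10 relative to the median gene (0.995 to 1.21). Bmp7, a ligand that can pair with Bmp4, stood at 12.9 and 13.8 FPKM. Together they made up 39.9% and 33.3% of all ligand FPKM in control tissue and 38.3% and 34.1% in mutant tissue. Gdf6, a ligand of the GDF5 subgroup known for joint and skull patterning, stood at 3.91 and 7.57 FPKM, 2.12-fold higher in the mutant (1.87 to 2.41). Its centred log2 ratio of 0.93 was the highest of the 31 genes and ranked 156 of 12259 genes.

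Bmp2, an epithelial and mesenchymal ligand with a role in bone and tooth formation, stood at 1.47 and 0.556 FPKM, on about 94 and 41 fragments, and was 2.41-fold lower (1.67 to 3.60). On the scale with the pseudocount its centred log2 ratio was -0.53, short of 1.5-fold, and with a pseudocount of 0.1 it was -1.11. Gdf5, a joint ligand close to Gdf6 in sequence, went the opposite way to it, at 1.016 and 0.339 FPKM on about 60 and 23 fragments, 2.73-fold lower (1.69 to 4.69). Bmp5 stood at 3.16 and 2.07 FPKM, 1.39-fold lower (1.13 to 1.74). Bmp6, at 0.697 and 0.570 FPKM, and Bmp3, at 0.149 and 0.117, were too low to show a difference at this depth, since both intervals included no difference. The summed ligand level was 38.8 FPKM in control and 40.6 in mutant tissue, and Gdf6 made up 10.07% and 18.7% of it, beside smaller mutant shares of Bmp2 and Bmp5. Bmp1, which is no BMP ligand but a protease that cleaves procollagens and Chordin, stood at 24.6 and 23.2 FPKM, with a centred log2 ratio of 0.05 that was -0.14 for its most abundant transcript alone.

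**Figure D2:**
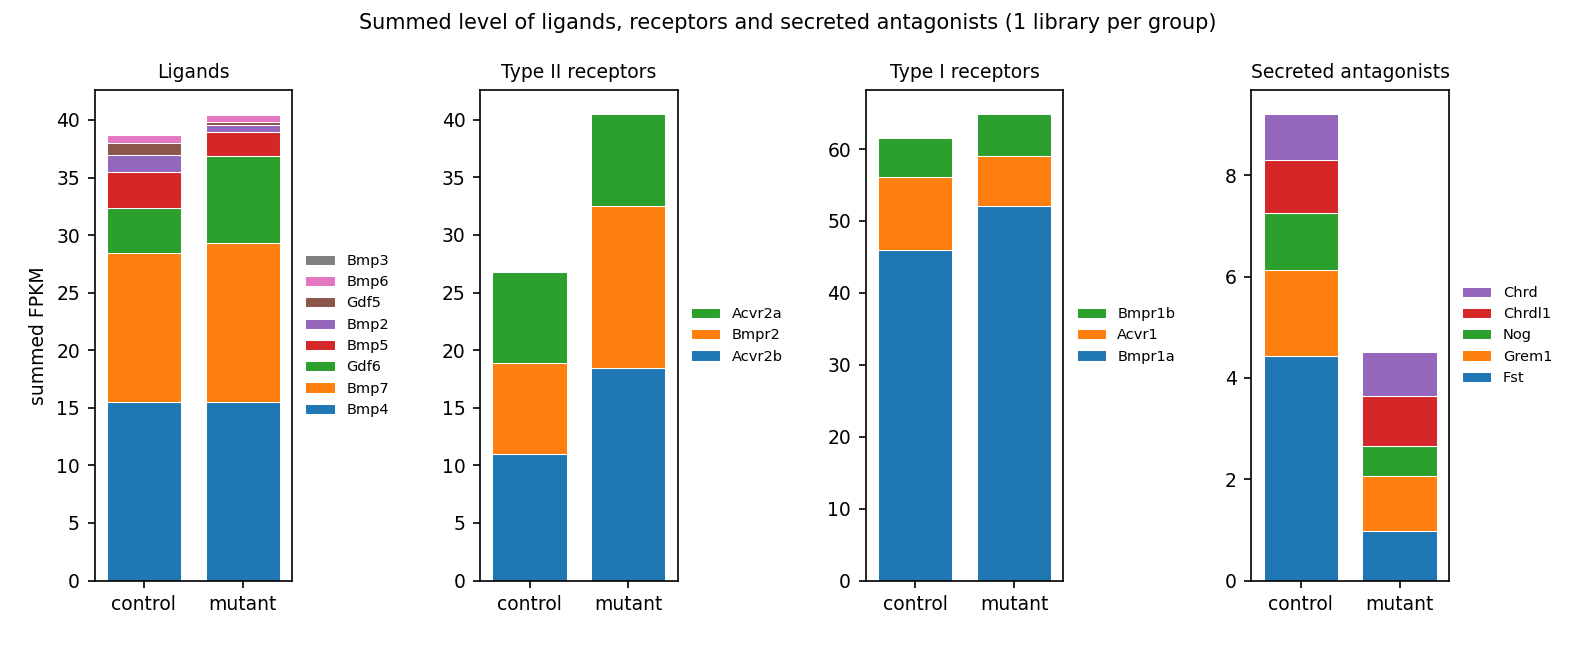
Summed FPKM of ligands, type II receptors, type I receptors and secreted antagonists in the control and the mutant library (stacked bars from 0, 1 colour per gene, 1 library per group). Type II receptors sum to 26.8 and 40.5 FPKM and secreted antagonists to 9.22 and 4.52, while ligands and type I receptors differ less.

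Of the 6 receptor genes, Bmpr2 and Acvr2b were higher in mutant tissue and Acvr1 was below the median gene. The 3 type II receptors, which activate type I receptors, summed to 26.8 FPKM in control and 40.5 in mutant tissue, and the 3 type I receptors to 61.5 and 64.9. Bmpr2, the type II receptor with preference for BMPs, stood at 7.92 and 14.1 FPKM, 1.95-fold higher in the mutant (1.78 to 2.13), and ranked 183 of 12259. Acvr2b, a type II receptor for activins as well as BMPs, stood at 10.96 and 18.4 FPKM, 1.84-fold higher (1.64 to 2.07), and ranked 215. Acvr2a, its close relative, was nearly level at 7.92 and 8.05 FPKM, with a centred log2 ratio of 0.15 that was -0.02 once the trend with transcript length was removed. Its interval (1.03 to 1.20 in fold) lay below those of Bmpr2 and Acvr2b.

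Of the type I receptor genes, Bmpr1a, the most abundant receptor, stood at 45.96 and 52.1 FPKM, 1.24-fold higher (1.20 to 1.28). Its centred log2 ratio was 0.31, or 0.15 without the length trend. Bmpr1b, known for cartilage condensation, stood at 5.41 and 5.90 FPKM. Acvr1, the type I receptor through which BMP7 can signal in craniofacial tissue, was the only receptor gene below the median gene. It stood at 10.1 and 6.89 FPKM, 1.34-fold lower (1.20 to 1.498), with a centred log2 ratio of -0.36. With scaling to a common FPKM total, which shifted all genes upward to a median of 0.40, its log2 ratio was 0.03.

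Of the 2 receptor genes past 1.5-fold, a promoter window without annotated exons could be shown for Acvr2b. The bases lie 250 to 61 before its RefSeq start, chr9:119401928-119402117 on GRCm38.p6, plus strand, and hold none of the motifs searched, so no base is in capitals.
Acvr2b: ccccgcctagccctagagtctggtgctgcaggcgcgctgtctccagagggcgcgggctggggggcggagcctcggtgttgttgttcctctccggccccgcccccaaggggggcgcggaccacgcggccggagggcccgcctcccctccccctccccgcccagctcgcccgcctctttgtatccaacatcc

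Of the 4 activating Smad genes, 3 were close to the median gene and Smad9, the least abundant, was higher in mutant tissue. Smad5 stood at 38.8 FPKM in control and 40.5 in mutant tissue, and Smad4, the common partner, at 37.4 and 37.8. Smad1 stood at 14.2 and 12.9 FPKM, a fold of 0.994 relative to the median gene (0.914 to 1.08). Smad9, the third BMP-specific Smad and a weaker activator, stood at 0.918 and 1.89 FPKM on about 125 and 299 fragments, 2.25-fold higher in the mutant (1.82 to 2.80). Its centred log2 ratio of 0.72 became 0.57 without the length trend, for a transcript of 5368 bases, and 0.31 with a pseudocount of 5. It still made up 2.03% of the summed FPKM of the 4 activating Smads in the mutant, against 1.01% in the control.

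The promoter of Smad9 is shown because this gene had the largest fold among the Smads and because its window holds GGCGCC, a GC-rich element to which Smad1 and Smad5 are known to bind, in capitals. It covers the 250 bases before the start, chr3:54755332-54755581 on GRCm38.p6, plus strand.
Smad9: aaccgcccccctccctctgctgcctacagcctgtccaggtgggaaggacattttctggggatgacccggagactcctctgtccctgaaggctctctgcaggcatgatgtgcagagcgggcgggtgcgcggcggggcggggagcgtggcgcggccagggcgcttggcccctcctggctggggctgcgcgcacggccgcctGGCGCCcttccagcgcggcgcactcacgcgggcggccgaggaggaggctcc

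The intracellular inhibitors did not reach 1.5-fold. Smad6, a feedback inhibitor specific to BMP signalling, stood at 13.8 and 13.6 FPKM. Smad7, which inhibits both BMP and TGF-beta signalling, stood at 7.08 and 8.80 FPKM, 1.36-fold higher in the mutant (1.24 to 1.49), the highest of this group. Its centred log2 ratio was 0.41 and its rank 1248 of 12259. Smurf1 and Smurf2, ubiquitin ligases that mark Smads and receptors for breakdown, stood at 11.1 and 10.3 FPKM and at 21.96 and 22.6 FPKM. Both lay within 0.17 of the median gene on the log2 scale.

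The Id genes, direct readouts of BMP signalling that encode inhibitors of basic helix-loop-helix factors, were among the most abundant genes of the pathway and nearly level between the libraries. Id3 stood at 181 FPKM in control and 153 in mutant tissue, with a centred log2 ratio of -0.11. Id2 stood at 134 and 121 FPKM, with -0.02, and Id1 at 92.3 and 80.6, with -0.06. The intervals of the fold relative to the median gene were 0.889 to 0.967 for Id3, 0.946 to 1.03 for Id2 and 0.9003 to 1.02 for Id1. These small differences have no fixed sign: with the length trend removed the log2 ratios were 0.05, 0.11 and 0.09. With scaling to a common FPKM total they were 0.35, 0.44 and 0.39, but the median gene itself was then at 0.40. Id4, far less abundant at 3.09 and 3.66 FPKM, was 1.30-fold higher (1.03 to 1.64) on about 130 and 179 fragments. The shares of Id3, Id2 and Id1 in the summed Id level were 44.1%, 32.7% and 22.5% in control tissue and 42.8%, 33.7% and 22.5% in mutant tissue.

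Promoters of 2 Id genes are shown, as the readout of the pathway, with GGCGCC in capitals. The Id2 bases lie 250 to 162 before the start, chr12:25096254-25096342, minus strand, and the Id4 bases 250 to 1 before it, chr13:48260866-48261115, plus strand, both on GRCm38.p6.
Id2: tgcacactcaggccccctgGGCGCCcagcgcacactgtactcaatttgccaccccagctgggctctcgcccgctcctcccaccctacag
Id4: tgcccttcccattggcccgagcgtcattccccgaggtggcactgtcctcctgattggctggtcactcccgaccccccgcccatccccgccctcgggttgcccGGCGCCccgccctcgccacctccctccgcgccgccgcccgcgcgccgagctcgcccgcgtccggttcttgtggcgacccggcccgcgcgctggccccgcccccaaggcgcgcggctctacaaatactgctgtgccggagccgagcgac

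The extracellular modulators held the largest difference of the pathway. Fst encodes follistatin, a secreted binder of activins and of some BMPs. It stood at 4.44 FPKM in control and 0.977 in mutant tissue, on about 268 and 69 fragments, and was 4.15-fold lower (3.15 to 5.45). Its centred log2 ratio of -1.33 ranked 12192 of 12259 genes from the highest. The 3 listed Fst transcripts had control levels of 3.15, 0.652 and 0.640 FPKM and mutant levels of 0.817, 0.160 and 7.62e-05 FPKM. These transcripts lie at nearly the same position and divide the fragments of the gene among them, so they are not separate observations. Beside the lower Fst level stand the muscle markers, of which the 5 over the filter had centred log2 ratios between -2.06 and -0.95. Their part in the Fst value was not tested.

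The other secreted antagonists were low in both libraries. Grem1, an antagonist of BMP2 and BMP4, stood at 1.69 and 1.095 FPKM, 1.41-fold lower with an interval (0.967 to 2.04) that included no difference. Nog, which encodes noggin, stood at 1.12 and 0.587 FPKM on about 55 and 33 fragments, 1.75-fold lower (1.13 to 2.81). Chrd, which encodes chordin, stood at 0.914 and 0.872 FPKM, and Chrdl1, which encodes a chordin-like protein, at 1.051 and 0.987. Together with Fst these 5 antagonists summed to 9.22 FPKM in control and 4.52 in mutant tissue. Most of that gap was Fst.

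Fstl1, a secreted follistatin-like glycoprotein of mesenchyme that binds BMP4, was the most abundant modulator. It stood at 105 and 64.2 FPKM and was 1.499-fold lower in the mutant, with the narrowest interval of the lower genes (1.45 to 1.55) on about 9654 and 6838 fragments. Its centred log2 ratio of -0.58 lay just inside the 1.5-fold limit and was -0.61 without the length trend. Bmper, a chordin-type modulator known from endothelium, stood at 2.11 and 1.14 FPKM, 1.70-fold lower (1.35 to 2.14). The endothelial markers had centred log2 ratios between -0.65 and 0.09, with a median of -0.34, beside -0.41 for Bmper, and their part was not tested. Twsg1, a chordin partner, stood at 39.8 and 35.7 FPKM, and Bambi, a decoy receptor, at 12.5 and 13.5.

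Promoters of 2 modulators are shown, one with the element in capitals and one without a match. Both windows cover the 250 bases before the start on GRCm38.p6: Grem1 at chr2:113758649-113758898, minus strand, and Bmper at chr9:23222826-23223075, plus strand.
Grem1: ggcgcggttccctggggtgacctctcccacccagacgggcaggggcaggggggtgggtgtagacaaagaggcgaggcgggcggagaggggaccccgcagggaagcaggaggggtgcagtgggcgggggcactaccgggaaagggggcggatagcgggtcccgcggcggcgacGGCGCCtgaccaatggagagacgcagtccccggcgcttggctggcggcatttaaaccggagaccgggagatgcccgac
Bmper: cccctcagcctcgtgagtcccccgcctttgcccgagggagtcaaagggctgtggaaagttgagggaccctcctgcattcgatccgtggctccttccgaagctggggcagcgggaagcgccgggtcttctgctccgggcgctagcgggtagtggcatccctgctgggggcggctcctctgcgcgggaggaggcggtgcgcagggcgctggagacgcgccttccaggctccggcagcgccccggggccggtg

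**Figure D3:**
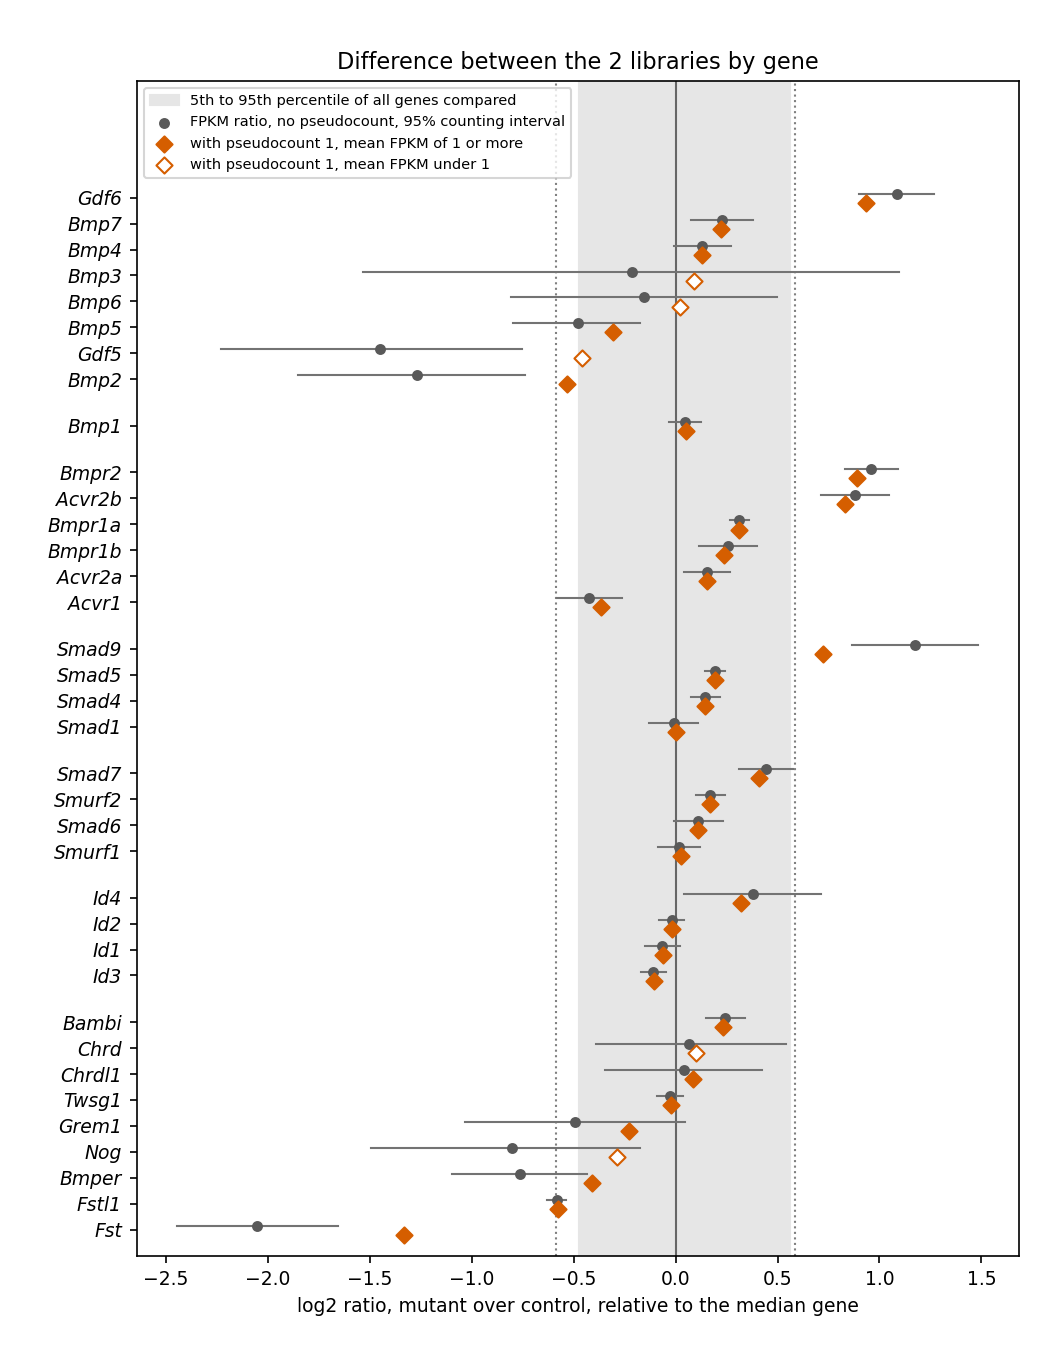
Log2 ratio of each gene relative to the median gene, without pseudocount (grey points, bars are 95% counting intervals) and with a pseudocount of 1 (diamonds; open where the mean FPKM is under 1). Grey shading spans the 5th to 95th percentile of all 12259 genes (-0.48 to 0.56) and dotted lines mark 1.5-fold; Gdf6, Bmpr2, Acvr2b and Smad9 lie above it and Fst below.

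A second list held 54 further genes of BMP, activin and related signalling, of which 29 passed the filter, with a median centred log2 ratio of -0.01. Bmp10, Gdf2, Gdf15, Fstl5 and Vwc2l were listed at 0 in at least 1 library. At 1.5-fold, 2 of the 29 were higher and 0 lower, against 4.55% and 3.23% of all 12259 genes. Usp9x, a deubiquitinase that acts on Smad4, stood at 23.4 and 35.7 FPKM, with a centred log2 ratio of 0.72 that was 0.17 without the length trend. Kcp, which encodes a chordin-type protein that enhances BMP signalling, stood at 5.69 and 8.36 FPKM, with 0.62, or 0.50 without the trend. Nbl1, a secreted antagonist of the DAN family and the most abundant of the list, stood at 60.6 and 39.1 FPKM, with a centred log2 ratio of -0.49. Outside the naming rule and chosen after their values were seen, the endothelial BMP receptor gene Acvrl1 and its coreceptor Eng were the lowest of the 29, at 3.84 and 2.03 FPKM and at 5.86 and 3.22 FPKM. They had centred log2 ratios of -0.55 and -0.57, next to the endothelial marker median of -0.34. Secreted antagonists outside the 36 genes included Sostdc1, a tooth and oral epithelium antagonist that was singled out after its values were seen, at 24.0 and 17.1 FPKM, with -0.34.

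Genes known to respond to BMP in facial mesenchyme or elsewhere lay on both sides of the median gene. Of 22 listed, 19 passed the filter, 11 above the median gene and 8 below, with a median centred log2 ratio of 0.08. The list was not split by direction of response and includes a gene that BMP4 represses (Barx1). Its counts and median therefore do not measure BMP output. At 1.5-fold 3 were higher, Dkk1, Gata3 and Tbx3, against 4.55% of all 12259 genes. Dkk1, a secreted Wnt antagonist, stood at 8.83 and 13.3 FPKM, with a centred log2 ratio of 0.67. Gata3, a distal mandibular factor, stood at 4.91 and 7.54 FPKM, with 0.66, and Tbx3, a T-box factor, at 18.6 and 26.4, with 0.62 (0.51 without the length trend). Hey1, which also responds to Notch and is expressed in vessels, was more than 1.5-fold lower (3.23% of all genes were), at 9.17 and 4.70 FPKM, with -0.70. Barx1, a proximal mesenchyme factor that BMP4 is known to repress and the most abundant of the list, stood at 165 and 122 FPKM, with -0.30. The classic readouts Msx1, at 39.97 and 51.7 FPKM, and Msx2, at 25.7 and 34.7, stayed under 1.5-fold with centred log2 ratios of 0.49 and 0.55. Both are named outside the naming rule, from a list in which 8 of 19 genes lay below the median gene. These Msx values lay above the median gene while Id1, Id2 and Id3 lay close to it.

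The centred log2 ratio of all genes was related to transcript length, with a Spearman correlation of 0.41 across 12259 genes, which are not independent. Across the 31 genes of the pathway it was 0.34, as a description of genes from the same 2 libraries. Acvr2b, with a main deposited transcript of 1629 bases, and Gdf6 and Bmpr2, with 3532 and 3507, kept log2 ratios of 0.93, 0.91 and 0.86 once the trend at these lengths was removed. The deposited Bmpr2 and Acvr2b transcripts end before the annotated ends of their genes. The trend at the full length of these messenger RNAs was not removed. Fst kept -1.29. Across the same 31, level and difference had a Spearman correlation of 0.003.

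**Figure D4:**
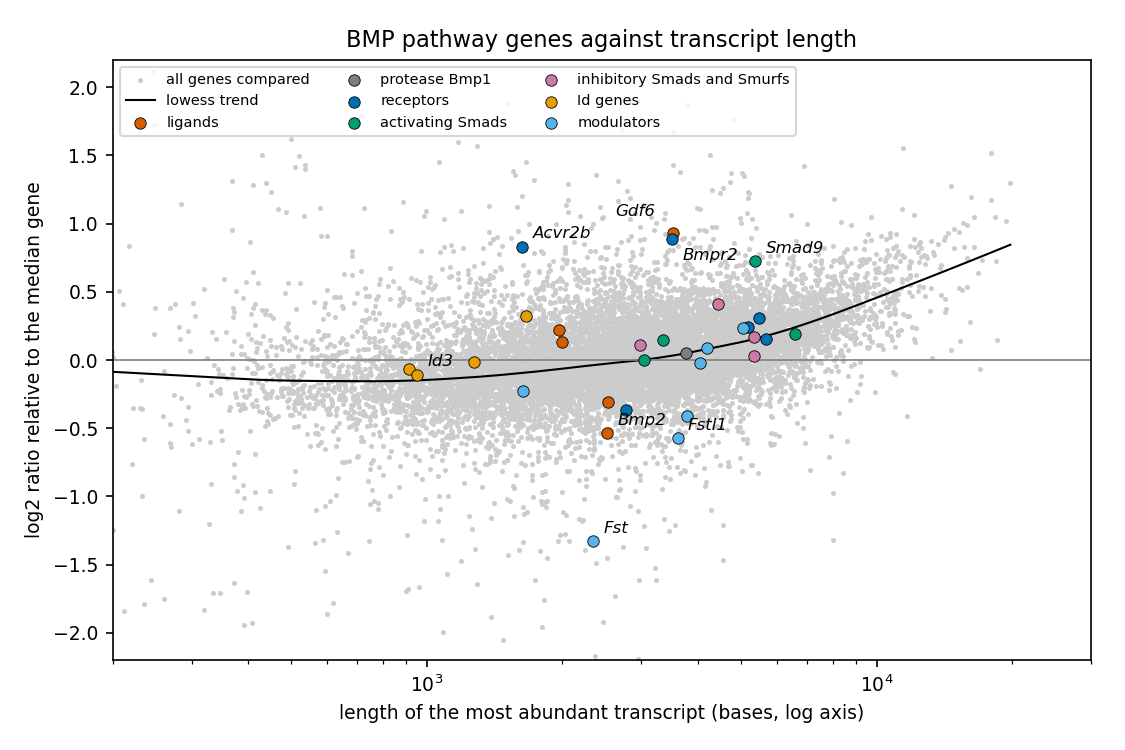
Centred log2 ratio against the length of the most abundant transcript (log axis) for all 12259 genes compared (grey), with a lowess trend (black line) and the 31 pathway genes coloured by role. Fst, at -1.33, lies far below the trend, while Gdf6, Bmpr2 and Acvr2b lie well above it.

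Transcript estimates differed within some genes whose sums hardly did. Smad4, on chromosome 18, stood at 19.9 and 24.8 FPKM for its transcript of 3341 bases and at 17.5 and 12.4 FPKM for the one of 3221 bases. Chrd was assigned mostly to a transcript of 3275 bases in control tissue (86.7% of its FPKM) and to one of 3341 bases in mutant tissue (83.2%), at a total under 1 FPKM in both. Smad5 gave 17.1% of its FPKM to a transcript of 6608 bases in control tissue and 5.68% in mutant tissue. Of the 36 genes 17 had 1 listed transcript, and among these were Gdf6, Bmpr2, Smad9, Bmp2 and Fstl1.

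The 36 genes lie on 15 chromosomes. Gdf6 is at chr4:9844372-9862345, Bmpr2 at chr1:59763400-59879014, Acvr2b at chr9:119402118-119434995, Smad9 at chr3:54755582-54801257 and Fst at chr13:114452290-114458951, in GENCODE on GRCm38. Exons of 9 genes overlap an exon on the opposite strand, among them Fst with Gm47040, Acvr2a with Orc4 and Chrd with Thpo. The sources used here do not give strandedness, so reads of such pairs cannot be told apart. The deposited Bmpr2 transcript ends at 59870859, before the annotated end of the gene, so its value covers part of the messenger RNA.

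RefSeq promoter windows were found for 23 of the 36 genes. Each of these gave 1 window, while the windows of all genes were not reduced to 1 per gene. In the 250 bases before the start, GGCGCC occurred in 8 of the 23, those of Bmpr1a, Bmpr2, Chrd, Grem1, Id2, Id4, Smad9 and Smurf2, and in 9.59% of 32851 windows of all genes. The sequence is its own reverse complement, so both strands are covered. The windows of the pathway genes were richer in G and C, with a median of 68.8% against 52.4%. Among windows with at least 60% G and C, the element occurred in 26.1% of 9178 and in 8 of 21 of the pathway. It was present both in genes that were 1.5-fold higher (Bmpr2, Smad9) and in genes close to the median gene (Id2, Smurf2). The search covered whole windows, annotated exons included. All 250 bases of the Bmpr2 window lie in annotated exons, as do those of Acvr1, Bmp6 and Id3. The Smad box CAGACA, or TGTCTG on the other strand, occurred in 3 of the 23 (Bmp5, Bmpr1b and Smurf1) and in 17.1% of all windows. The start site of the Bmpr1b window lies 186954 bases from the start of the most abundant deposited Bmpr1b transcript. The palindrome GTCTAGAC occurred in 0 of the 23 and in 0.167% of all. The GLI consensus GACCACCCA (reverse TGGGTGGTC), sought because the study concerns GLI factors, occurred in 0 of the 23 and in 0.225% of all windows. With 1 base left free, GACCNCCCA, which includes the former, it occurred in 0 of the 23 and 0.868% of all.

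**Figure D5:**
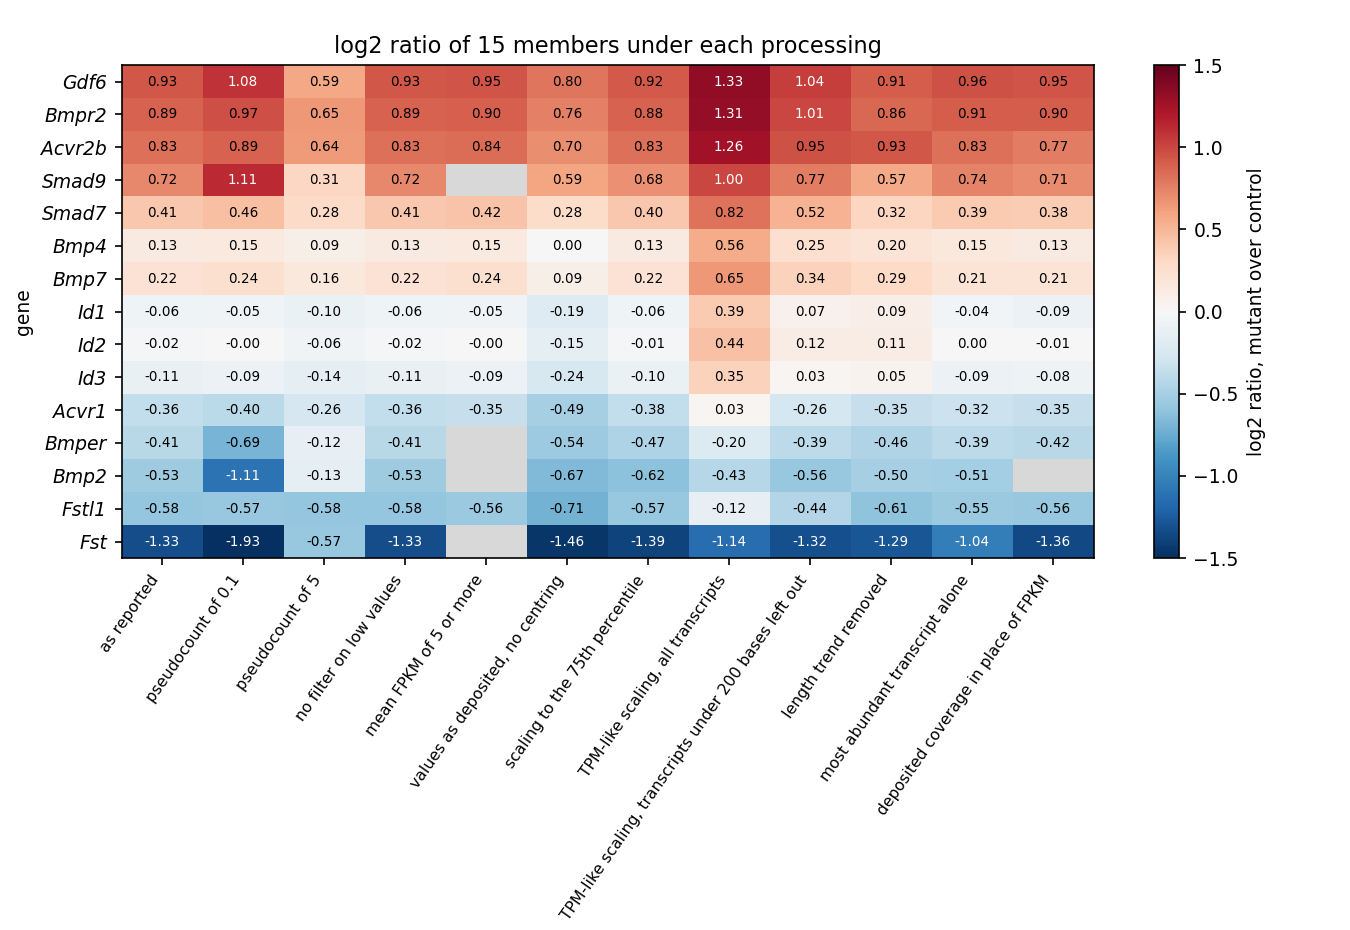
Log2 ratio, mutant over control, of 15 pathway genes (rows) under each processing (columns), coloured from blue (lower in the mutant) to red (higher); grey cells are genes under the filter of that column. Gdf6, Bmpr2, Acvr2b and Smad9 are above 0 and Fst, Fstl1, Bmp2 and Bmper below 0 in every column with a value, while Id1, Id2 and Id3 take both signs. Not all columns are centred: the median gene is at 0.40 with scaling to a common total over all transcripts and at -0.13 as deposited.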

How the data were processed

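RNA from 1 control and 1 mutant pool was sequenced, and the authors deposited 1 table per library with an FPKM, a coverage signal and a length for each of 59120 UCSC transcripts, per the file headers. The tables' names give Cufflinks. The aligner, the strandedness and that program's version were each not given in the sources used here. Although the submitters' processing notes name mm9, transcript coordinates matched GENCODE on GRCm38: a start or end was identical for 72.1% of 45475 transcripts. Deposited starts are counted from 0 and are printed here plus 1. The 65 displaced lines were left out.

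FPKM was summed per gene symbol. Genes averaging at least 1 FPKM (12259) were compared as log2 ratios with a pseudocount of 1, centred on the median gene. The ratio calculation was tested on simulated data. Fragments were approximated from the lowest FPKM steps of genes with 1 transcript (0.0394 FPKM kilobases per fragment in the control, 0.0339 in the mutant); these steps were approximate. Intervals are Clopper-Pearson, at 95%. No p-value was computed, since each group is 1 library.

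All 36 genes were named. From the other lists, those past 1.5-fold and the most abundant gene were named, with exceptions marked. Genes and lists were chosen with earlier results of these data known. The listed gene Tcfap2a was not found among the symbols, and Cdx2 was listed at 0. Some genes of the readout list are not reported here. Alternatives covered pseudocount, filter, scaling, transcript length and choice of transcript. The use of coverage in place of FPKM was added after the data were seen. Promoters are from RefSeq on GRCm38.p6. Printed windows were cut where a GENCODE exon overlapped, while motifs were sought in whole windows. Tools were Python 3.11.15, pandas 2.3.3, SciPy 1.17.1 and statsmodels 0.14.6.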

Additional observations from a re-analysis of the deposited data

How the results depend on the processing

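Under 11 alternatives, 13 of the 31 genes over the filter had log2 ratios above 0 wherever a value could be had, Gdf6, Bmpr2, Acvr2b and Smad9 among them, and 6 below 0, which were Fst, Fstl1, Bmp2, Bmper, Bmp5 and Grem1. The number of genes at least 1.5-fold higher was 4 as reported and 3 or 4 under the alternatives other than scaling to a common total over all transcripts, where it was 13 with a median of 0.54 for the pathway, as the median gene itself was then at 0.40. The number at least 1.5-fold lower was 1 as reported. It was 3 with a pseudocount of 0.1 (Bmp2, Bmper and Fst) and 3 without centring, 2 with scaling to the 75th percentile (Bmp2 and Fst) and 2 with the length trend removed (Fst and Fstl1). It was 0 with a pseudocount of 5, where Fst had -0.57, and 0 with a mean FPKM of 5 or more, where Fst fell under the filter. Of single gene values, 75 differed from the reported one by more than their counting error and 256 did not, and 24 of the 75 came from scaling to a common total. The 256 include the values without a filter, which are the reported ones by construction. They also include those with the filter at 5 FPKM, where only the centring changed. Counting error does not measure how far processings of the same fragments differ, so these counts are a description. Genes under about 2 FPKM rest on few fragments, about 41 for Bmp2 and 23 for Gdf5 in the mutant. No paired analysis was possible because each group is 1 library.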
